A study of Mus musculus with 12 samples.

Results

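The 36 genes described here encode the folding machinery of the endoplasmic reticulum (ER), the compartment in which secreted and membrane proteins are made, and the signalling of the unfolded protein response (UPR), which adjusts that machinery. They were listed by name as ER and UPR genes. All 36 were found by Entrez identifier among the 27179 genes of the deposited count files, and all 36 passed the filter on low counts that left 19398 tested genes. They comprise 11 ER chaperones and cochaperones, 6 disulfide and prolyl isomerases, 7 genes of ER-associated degradation (ERAD), 3 genes of the translocon, 6 stress sensors and transcription factors, and 3 targets of the transcription factor ATF4.

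RNA was measured in thymic epithelial cells (TECs), the stromal cells of the thymus on which T cells develop and are selected. The cells were cTECs, of the thymic cortex, and mTEChi, cells of the medulla that carry much MHC class II. They came from mice in which Hoil was deleted in TECs and from control mice, with 3 libraries in each of the 4 groups. HOIL-1, encoded by the gene Rbck1, is a subunit of the complex that builds linear ubiquitin chains. All mice were C57BL/6 and carried 2 floxed Hoil alleles. The HOIL-deficient mice were Foxn1cre T/+ Hoil lox/lox, so that Cre was expressed from Foxn1, a gene active in TECs, and the controls were Foxn1cre +/+ Hoil lox/lox, without Cre, although their genotype label reads wild type. Replicate 3 of each HOIL-deficient group was labelled female and the other 10 libraries male. Age was not given in the sources used here. Cells were sorted as CD45-, TER-119-, CD31- and EpCAM-positive cells, cTECs as Ly51+ and UEA1-, and mTEChi as UEA1+ and Ly51- with high MHC class II. The labels do not say that replicates came from separate mice, so p-values reflect only how far these libraries vary, which may be technical variation.

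In the UPR, the ER membrane proteins IRE1, PERK and ATF6 respond to unfolded protein. IRE1 splices the mRNA of Xbp1 so that it encodes an active transcription factor, PERK phosphorylates a translation initiation factor so that general translation falls and ATF4 is made, and ATF6 is cut in the Golgi to release its transcription factor domain. XBP1 and ATF6 raise genes for chaperones and ERAD, while ATF4 raises genes for amino acid supply and, through CHOP, for cell death. Cells that make much secreted or membrane protein, such as plasma cells, use these pathways without injury. Gene counts cannot show Xbp1 splicing, phosphorylation of PERK or cleavage of ATF6.

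Promoter sequences of the members were searched for 4 motifs of the UPR, and 15 of the 31 members with a sequence held at least 1 of them. The ER stress element (ERSE), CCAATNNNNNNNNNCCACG, is the classical binding motif of ATF6 with NF-Y and was defined from promoters of ER chaperone genes such as Hspa5, so its presence in such promoters is background knowledge. RefSeq windows of GRCm38.p6, from 250 bases before to 50 bases after a transcript's start, were matched for 31 of the 36 members; Hyou1, Manf, Derl1, Sec61a1 and Atf6 had none. An ERSE on either strand was found in 9 of these 31 members (29%) and in 37 of all 27025 genes with a window (0.137%). The 250 bases before the start are printed for 3 members that were higher in both HOIL-deficient cell types, 5′ to 3′ on the strand of the gene with the ERSE in capitals. The stretch of Hspa5 lies at chr2:34771840-34772089 on the plus strand, that of Pdia6 at chr12:17266339-17266588 on the plus strand, and that of Hsp90b1, which holds 2 matches, 1 on each strand, at chr10:86705445-86705694 on the minus strand.
Hspa5: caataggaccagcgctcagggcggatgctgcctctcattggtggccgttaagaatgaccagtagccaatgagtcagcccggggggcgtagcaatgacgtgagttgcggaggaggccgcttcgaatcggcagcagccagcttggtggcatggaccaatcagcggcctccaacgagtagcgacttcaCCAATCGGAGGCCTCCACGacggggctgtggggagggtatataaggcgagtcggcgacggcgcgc
Pdia6: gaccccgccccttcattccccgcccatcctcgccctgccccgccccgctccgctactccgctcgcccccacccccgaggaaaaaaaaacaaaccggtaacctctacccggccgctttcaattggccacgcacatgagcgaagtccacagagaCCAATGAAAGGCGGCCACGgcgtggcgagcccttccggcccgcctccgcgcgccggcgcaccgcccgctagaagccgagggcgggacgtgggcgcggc
Hsp90b1: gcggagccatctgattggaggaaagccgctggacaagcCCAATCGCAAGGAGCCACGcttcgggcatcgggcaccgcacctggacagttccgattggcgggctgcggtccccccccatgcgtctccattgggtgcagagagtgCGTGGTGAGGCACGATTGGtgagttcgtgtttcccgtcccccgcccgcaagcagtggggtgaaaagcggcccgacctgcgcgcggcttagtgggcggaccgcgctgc
The Hspa5 match ended 47 bases before the start, that of Pdia6 80 bases before it, and those of Hsp90b1 89 and 194 bases before it. In the motif's own direction, with the fixed letters in capitals, the matches of the other 6 members can be set beside that of Hspa5; they share the fixed letters by construction.
Hspa5: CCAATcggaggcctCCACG
Calr: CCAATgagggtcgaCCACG
Canx: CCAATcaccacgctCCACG
Dnajc3: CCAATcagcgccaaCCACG
Creld2: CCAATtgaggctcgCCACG
Syvn1: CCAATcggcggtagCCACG
Derl3: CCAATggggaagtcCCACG
The shorter ERSE-II, ATTGGNCCACG, was in the windows of Dnajb11 and Herpud1 and in 0.0444% of all genes. The UPR element TGACGTGG, which shares the letters CCACG with both ERSE forms on the opposite strand, was in that of Txndc5 alone among the members and in 0.714% of all genes. The composite element TGATGNAA, to which ATF4 binds with C/EBP proteins, was in 5 members, among them all 3 ATF4 targets, and in 4.51% of all genes. It stood 16 to 23 bases before the start of Asns as TGATGaAA. None of the 4 motifs was in the windows of the 5 sensors and transcription factors that had one. A match describes the letters of the window and is not shown to be a bound site.

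The share of members that rose in HOIL-deficient TECs was above that of all tested genes in both cell types, and the members concerned were mainly chaperones and isomerases. The members were chosen with earlier results of these data known, so this share describes them and is no independent test. In cTECs 12 of the 36 members rose and 2 fell at an adjusted p under 0.05 (edgeR quasi-likelihood test, Benjamini-Hochberg over all tested genes), where 6.06% of all tested genes rose and 6.02% fell. In mTEChi 13 members rose and 0 fell, where 11.3% of all genes rose and 8.59% fell. Of the members with lower values in mTEChi, 4 had an unadjusted p under 0.05 (Dnajb9, Sec61b, Atf4 and Ddit3), DESeq2 called 3 lower and limma-voom 0. Of the members, 9 rose in both cell types (Hspa5, Hsp90b1, Dnajb11, Sdf2l1, Calr, Pdia4, Pdia6, Ppib and Ssr1), as did 1.70% of all genes. Without HOIL-deficient cTEC replicate 2, without control cTEC replicate 3 or with males only, 5 of these 9 rose in both (Hspa5, Hsp90b1, Sdf2l1, Pdia6 and Ppib), and the 12 members that rose in cTECs became 7, 7 and 6. Manf, Pdia5 and Derl3 passed the test in cTECs and not in mTEChi, and Canx, Pdia3, Sec61a1 and Asns in mTEChi and not in cTECs. The difference between the cell types itself passed for Derl3, Pdia3 and Asns of these 7, and not for Manf (-0.51 ± 0.31, adjusted p = 0.31), Pdia5 (-0.87 ± 0.48, 0.268), Canx (0.53 ± 0.19, 0.0962) or Sec61a1 (0.64 ± 0.33, 0.234). The median log2 fold change of the members was 0.29 in cTECs, against -0.02 over all tested genes, and 0.46 in mTEChi, against -0.03. The members' share of all counts was 0.551 ± 0.00717% (SD, n = 3) in control cTECs and 0.802 ± 0.0322% in HOIL-deficient cTECs, and 0.698 ± 0.0834% in control and 1.41 ± 0.0392% in HOIL-deficient mTEChi. Libraries of the 2 genotypes did not overlap in this share in either cell type, and the exact 2-sided permutation p was 0.1 for each, the smallest that 3 against 3 libraries allow. In bulk samples fewer cells of a type and less RNA per cell cannot be told apart.

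**Figure D1:**
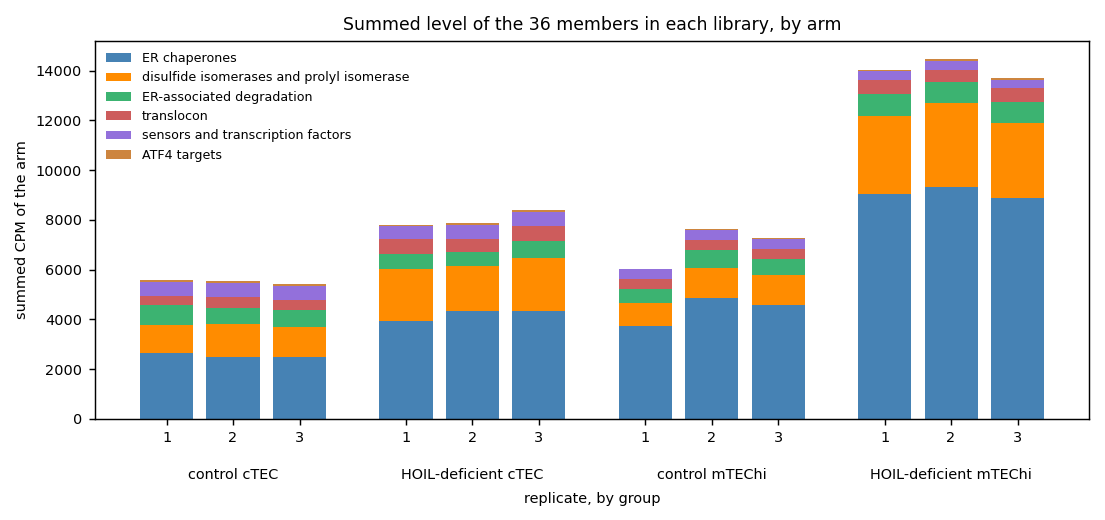
Summed CPM (counts scaled to a library total of 1e6) of the members in each of the 12 libraries, stacked by arm, with libraries on the horizontal axis grouped by cell type and genotype. Chaperones and isomerases make up most of each bar, and the 3 HOIL-deficient mTEChi bars stand at 13690 to 14480 CPM against 6034 to 7622 CPM in control mTEChi.

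**Figure D2:**
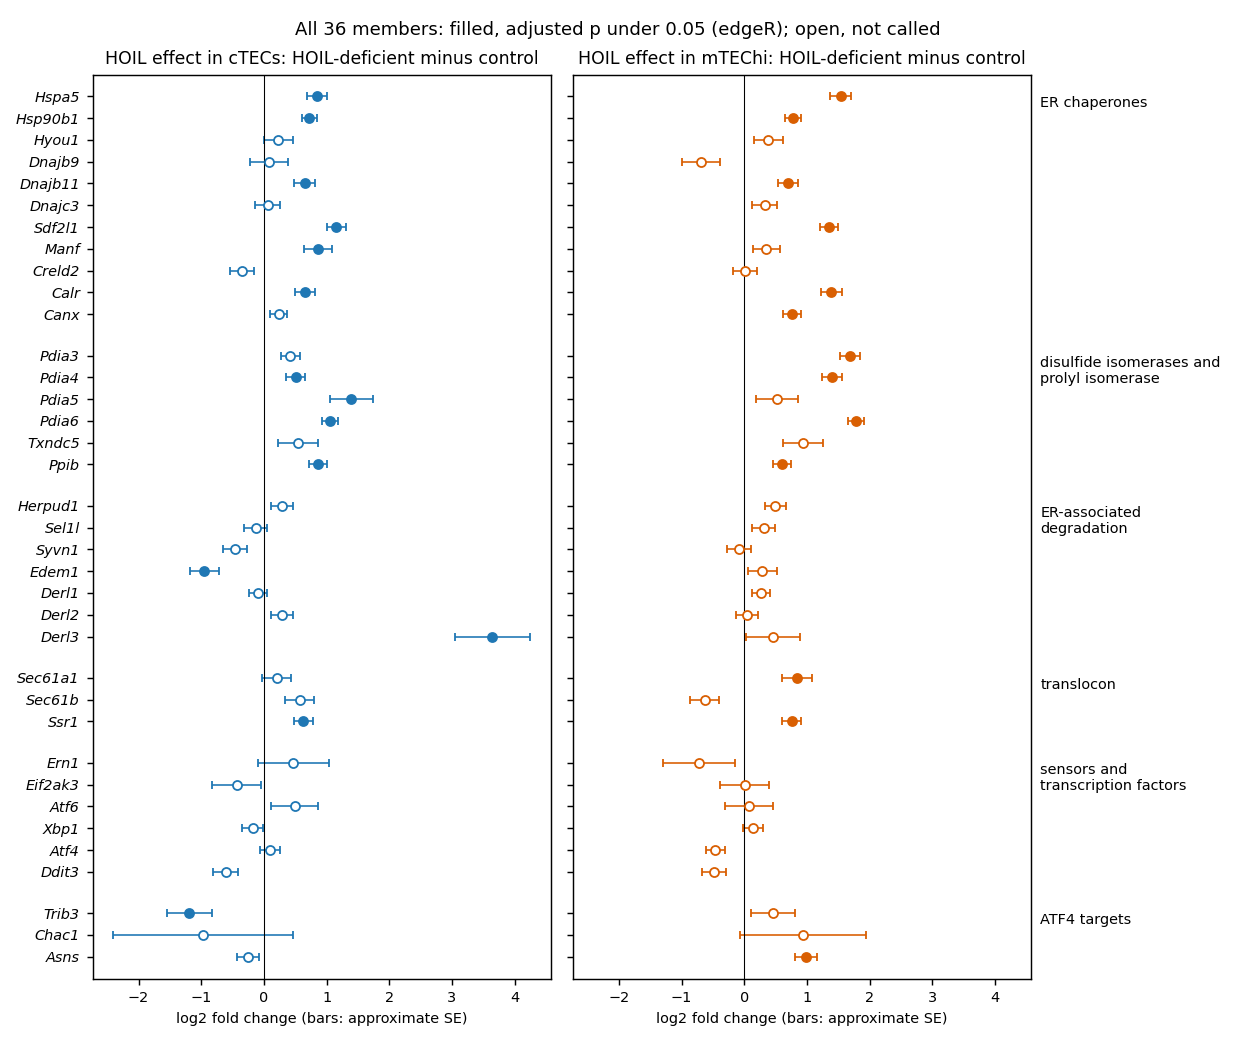
Log2 fold change of each member, HOIL-deficient against control, in cTECs (left) and mTEChi (right), with bars for the approximate SE, filled points for an adjusted p under 0.05 and members ordered by arm. Filled points lie to the right among chaperones and isomerases in both panels, while the 6 sensors and transcription factors are open.

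Several measures of RNA composition and cell content moved with genotype, and their part in the members' differences was not tested. The 12 libraries held 7941217 to 14274333 counts. Rbck1, the targeted gene, was at 183 to 236 CPM in control and 22.0 to 33.0 CPM in HOIL-deficient cTECs, and at 108 to 128 and 11.0 to 23.3 CPM in mTEChi, which matches the labels. In mTEChi, mitochondrial transcripts took 5.49 ± 3.03% of control counts, with 8.93% in replicate 1, and 1.84 ± 0.113% of HOIL-deficient counts, and Malat1 took 4.13 ± 0.931% and 0.851 ± 0.135%. In cTECs both shares overlapped between genotypes. With mitochondrial and Malat1 counts removed, 12 members rose and 1 fell in cTECs and 13 rose and 1 fell in mTEChi. With replicate 1 of both control groups left out, 14 rose and 2 fell in cTECs and 13 rose in mTEChi. Both alternatives were chosen after seeing the data. Summed thymocyte markers were at 1883 to 5988 CPM in control and 734 to 1505 CPM in HOIL-deficient cTECs (19 of 23 fell), and the 10 cortical epithelial markers at 37310 to 47410 and 18990 to 20320 CPM (8 fell). In mTEChi the cortical markers were at 2424 to 2859 CPM in control and 2910 to 3746 CPM in HOIL-deficient libraries (2 rose and 1 fell). Medullary epithelial markers were at 2750 to 3768 and 3605 to 4226 CPM in mTEChi (1 of 10 rose and 3 fell). In cTECs they were at 159 to 194 and 134 to 150.5 CPM (1 rose and 2 fell). Dendritic cell and macrophage markers were at 996 to 1507 and 1124 to 1389 CPM in mTEChi (0 of 17 passed). In cTECs they were at 104 to 146 and 141 to 202 CPM (1 of 17 rose). General thymic epithelial markers were at 42660 to 43700 and 37390 to 39290 CPM in cTECs (1 of 13 rose), and at 37500 to 60210 and 62900 to 73110 CPM in mTEChi (4 of 13 rose and 1 fell). Fibroblast and pericyte markers were at 386 to 2094 and 3814 to 5434 CPM in cTECs (13 of 20 rose), and at 542 to 599 and 1184 to 1516 CPM in mTEChi (6 of 20 rose). Endothelial markers were at 49.1 to 102 and 248 to 706 CPM in cTECs (17 of 20 rose), and at 167 to 231 and 372 to 1004 CPM in mTEChi (12 of 20 rose). Adipocyte markers were at 105 to 215 and 445 to 807 CPM in cTECs (8 of 11 rose), with the defining marker Adipoq at 0 in control replicates 1 and 3, and at 1001 to 2053 and 1226 to 1630 CPM in mTEChi (2 of 11 rose). Markers of B and plasma cells, in which many of the members are abundant, were at 143 to 369 and 113 to 207 CPM in cTECs, where Sdc1 and Ebf1 rose and Ighm, Mzb1, Cd79b and Jchain fell, and at 252 to 306 and 234 to 284 CPM in mTEChi, where 0 of 15 passed the test. The plasma cell marker Tnfrsf17 was at 0 in control cTEC replicates 1 and 2 and HOIL-deficient cTEC replicates 2 and 3. In mTEChi Tnfrsf17 was at 23.1 to 28.0 CPM in controls and 17.2 to 21.6 CPM in HOIL-deficient libraries. Other markers of this list differed in direction there. Igkc was higher without overlap, at 18.0 to 21.3 CPM in controls and 34.0 to 42.6 CPM in HOIL-deficient libraries. Ighm was lower without overlap, at 42.5 to 51.7 and 22.6 to 27.25 CPM. Of the 15 tested markers, 5 had a log2 fold change above 0 in mTEChi.

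The general folding chaperones rose in both HOIL-deficient cell types. Hspa5 (Entrez 14828, chr2:34772090-34776529) encodes BiP, the ER member of the HSP70 family, which binds unfolded chains and holds the stress sensors inactive. Its levels were 789, 806 and 836 CPM in control cTECs, 1458, 1529 and 1656 CPM in HOIL-deficient cTECs, 648, 1209 and 1141 CPM in control mTEChi and 3050, 3016 and 2918 CPM in HOIL-deficient mTEChi, in the order of replicates 1 to 3. All HOIL-deficient libraries lay above all controls of their cell type, and control mTEChi replicate 1 was below the other mTEChi controls. The log2 fold change was 0.85 ± 0.16 (approximate SE, adjusted p = 0.00509) in cTECs and 1.54 ± 0.17 (adjusted p = 0.000167) in mTEChi. Hsp90b1 (Entrez 22027, chr10:86690841-86705444) encodes GRP94, the ER member of the HSP90 family. It was at 521, 512 and 526 CPM in control cTECs, 860.4, 969 and 901 CPM in HOIL-deficient cTECs, 1308, 1297 and 1292 CPM in control mTEChi and 2184, 2579 and 2231 CPM in HOIL-deficient mTEChi. The groups did not overlap within a cell type, and the rises were 0.72 ± 0.12 (adjusted p = 0.0023) and 0.78 ± 0.12 (adjusted p = 0.00103), with a difference between cell types of 0.06 ± 0.17 (adjusted p = 0.906). Per gene length, in TPM (counts divided by gene length and scaled to a total of 1e6) computed from the counts and the deposited gene lengths, Hspa5 had the highest mean level of the 36 members in control cTECs (559.6 ± 35.9 TPM, SD, n = 3), in HOIL-deficient cTECs (1027 ± 75.2) and in HOIL-deficient mTEChi (1815 ± 65.4). In control mTEChi, Hsp90b1 at 694 ± 31.1 TPM and Hspa5 at 569 ± 196 TPM were not separated beyond their spread. The span of Hspa5 overlaps that of Rabepk by 1921 bases, and strand was not given in the sources used here; Rabepk held 187 to 385 counts a library.

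The lectin chaperones calreticulin and calnexin, which bind monoglucosylated glycoproteins and help to load MHC class I molecules, were both higher in HOIL-deficient mTEChi. Calr (Entrez 12317, chr8:84842088-84846931), the soluble form, was at 461, 464 and 427 CPM in control and 704, 807 and 761 CPM in HOIL-deficient cTECs, and at 408, 749 and 612 and 1679, 1523 and 1591 CPM in control and HOIL-deficient mTEChi. The groups did not overlap, and control mTEChi replicate 1 was again the lowest of its group. The rise was 0.66 ± 0.16 on the log2 scale in cTECs (adjusted p = 0.0173) and 1.39 ± 0.16 in mTEChi (adjusted p = 0.000213). Canx (Entrez 12330, chr11:50293957-50325673), the membrane-bound form, was at 330.5, 338 and 309.8 CPM in control cTECs, 350, 442 and 434 CPM in HOIL-deficient cTECs, 296, 340 and 327 CPM in control mTEChi and 512, 648 and 548 CPM in HOIL-deficient mTEChi. It rose in mTEChi (0.76 ± 0.14, adjusted p = 0.0023) but did not pass the test in cTECs (0.24 ± 0.14, adjusted p = 0.292), where HOIL-deficient replicate 1 lay close to the controls. The difference between the cell types did not pass the test for Calr (adjusted p = 0.0554) or Canx (adjusted p = 0.0962). The cTEC call of Calr was lost without HOIL-deficient cTEC replicate 2 (adjusted p = 0.0642) or control cTEC replicate 3 (0.0743) and with males only (0.057), within a range of 0.00108 to 0.0743 over all alternatives.

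Of the cochaperones, Sdf2l1 and Dnajb11 rose in both cell types and Manf in cTECs. Sdf2l1 (Entrez 64136, chr16:17130138-17132383), which forms a complex with Dnajb11 and BiP, was at 21.7, 27.2 and 27.3 CPM in control cTECs, 63.7, 52.9 and 64.0 CPM in HOIL-deficient cTECs, 80.8, 114 and 104 CPM in control mTEChi and 266, 260.1 and 268 CPM in HOIL-deficient mTEChi. No library of a HOIL-deficient group reached down to its controls, and the rises of 1.16 ± 0.15 (adjusted p = 0.000481) and 1.36 ± 0.15 (adjusted p = 0.000167) passed the test under all 23 alternatives in each cell type. Dnajb11 (Entrez 67838, chr16:22857845-22879634), a J-domain partner of BiP, was at 78.5, 64.0 and 72.3 CPM in control cTECs, 105, 124 and 131 CPM in HOIL-deficient cTECs, 107, 167 and 158 CPM in control mTEChi and 268, 232 and 227 CPM in HOIL-deficient mTEChi. It rose by 0.65 ± 0.17 in cTECs (adjusted p = 0.0212) and by 0.70 ± 0.16 in mTEChi (adjusted p = 0.0101) with no overlap. Manf (Entrez 74840, chr9:106888753-106891938), a secreted factor that slows nucleotide exchange by BiP, was at 73.1, 39.4 and 47.7 CPM in control cTECs, 94.3, 102 and 115 CPM in HOIL-deficient cTECs, 333, 242 and 263 CPM in control mTEChi and 368, 398 and 361 CPM in HOIL-deficient mTEChi. Its libraries did not overlap in either cell type, but control replicate 1 was the highest control in both. The log2 fold change of Manf was 0.86 ± 0.22 in cTECs (adjusted p = 0.0222) and 0.35 ± 0.22 in mTEChi (adjusted p = 0.278), and without replicate 1 of both control groups it passed the test in mTEChi as well (adjusted p = 0.0141, range 0.0141 to 0.565).

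The cTEC calls of Dnajb11 and Manf depended on single libraries. For Dnajb11 the adjusted p was 0.0654 without HOIL-deficient cTEC replicate 2, 0.0654 without replicate 3, 0.0776 without control cTEC replicate 2, 0.0728 without control replicate 3 and 0.0863 with males only, in a range from 0.00181. For Manf it was 0.0524, 0.063, 0.0803 and 0.0901 without the same libraries in that order, 0.0847 with males only and 0.0526 in a fit of the cTEC groups alone, in a range from 0.000407. The other chaperones did not pass the test in either cell type. Hyou1, the large HSP70-like exchange factor of BiP, had log2 fold changes of 0.23 in cTECs and 0.38 in mTEChi. Dnajc3, the cochaperone that inhibits PERK, had 0.06 and 0.33, and passed the test in cTECs without replicate 1 of both control groups (adjusted p = 0.0453, range up to 1). Creld2, a secreted stress-induced protein, had -0.35 and 0.01. Dnajb9, the BiP partner that represses IRE1, had 0.08 ± 0.31 in cTECs and -0.69 ± 0.30 in mTEChi (adjusted p = 0.124). In mTEChi its HOIL-deficient libraries, at 29.1, 59.3 and 45.9 CPM, lay below the controls, at 64.0, 69.2 and 73.8 CPM. Of the 11 chaperones, 6 rose in each cell type (54.5%), beside 6.06% of all tested genes in cTECs and 11.3% in mTEChi. The median log2 fold change of the 11 chaperones was 0.65 in cTECs and 0.70 in mTEChi.

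The disulfide isomerases, which form and reshuffle the cysteine bridges of new proteins, gave the members with the smallest p-values in mTEChi. Pdia6 (Entrez 71853, chr12:17266589-17284785), which also attenuates IRE1 signalling, was at 212, 192 and 211 CPM in control cTECs, 434, 425 and 498 CPM in HOIL-deficient cTECs, 185, 245 and 256 CPM in control mTEChi and 832, 821 and 798 CPM in HOIL-deficient mTEChi. The lowest HOIL-deficient library was above the highest control in each cell type. Pdia6 rose by 1.05 ± 0.13 on the log2 scale in cTECs (adjusted p = 0.00033) and 1.78 ± 0.13 in mTEChi (adjusted p = 1.2e-05). Pdia3 (Entrez 14827, chr2:121413902-121438687), the glycoprotein isomerase ERp57 that works with calreticulin and calnexin and sits in the MHC class I loading complex, was at 434, 592 and 480.2 CPM in control cTECs, 795, 597 and 747 CPM in HOIL-deficient cTECs, 393, 433 and 433 CPM in control mTEChi and 1285, 1629 and 1322 CPM in HOIL-deficient mTEChi. In mTEChi it rose by 1.69 ± 0.16 (adjusted p = 5.82e-05). In cTECs, where HOIL-deficient replicate 2 almost met control replicate 2, the difference was 0.42 ± 0.15 (adjusted p = 0.0942), which passed the test with DESeq2 (0.0218) and with upper-quartile factors (0.0473), in a range up to 0.273. The span of Pdia3 overlaps that of Catsper2 by 697 bases, and Catsper2 held 9 to 102 counts a library.

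Pdia4 (Entrez 12304, chr6:47796141-47813512), the isomerase ERp72, was at 215, 267 and 233 CPM in control cTECs, 351, 354 and 376 CPM in HOIL-deficient cTECs, 119, 204 and 174 CPM in control mTEChi and 458, 461 and 441 CPM in HOIL-deficient mTEChi. No libraries of the 2 genotypes overlapped within a cell type. It rose by 1.40 ± 0.16 in mTEChi (adjusted p = 0.000176) and by 0.51 ± 0.15 in cTECs (adjusted p = 0.0446). The cTEC call was close to the threshold and passed in 11 of 23 alternatives: leaving out any 1 library other than control cTEC replicate 2 and control mTEChi replicates 1 and 2 ended it, with adjusted p from 0.057 to 0.145. Pdia5 (Entrez 72599, chr16:35397308-35490919), an isomerase that also acts on ATF6, was at 4.14, 4.91 and 5.68 CPM in control cTECs, 12.8, 12.3 and 16.1 CPM in HOIL-deficient cTECs, 4.20, 6.21 and 8.22 CPM in control mTEChi and 6.12, 9.81 and 11.8 CPM in HOIL-deficient mTEChi. Its groups did not overlap in cTECs, where it rose by 1.40 ± 0.35 (adjusted p = 0.0191), and overlapped in mTEChi (0.52 ± 0.34, adjusted p = 0.304). The cTEC call was lost without HOIL-deficient cTEC replicate 3 (adjusted p = 0.057) or control cTEC replicate 2 (0.0522) and with males only (0.0654), in a range from 0.000562. Txndc5, a thioredoxin-like isomerase, had log2 fold changes of 0.54 ± 0.32 in cTECs and 0.93 ± 0.32 in mTEChi (adjusted p = 0.0546, 0.0267 to 0.179 over the alternatives). The mTEChi value of Txndc5 passed the test without HOIL-deficient cTEC replicate 2 (0.0423), control cTEC replicate 1 (0.0467) or control mTEChi replicate 2 (0.0267), with DESeq2 (0.0468), with limma-voom (0.0346) and in a fit of the mTEChi groups alone (0.0451).

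Ppib (Entrez 19035, chr9:66060169-66066629), cyclophilin B, which turns proline bonds in collagen and other secreted proteins, was at 164, 119.9 and 147 CPM in control cTECs, 270.2, 296 and 269 CPM in HOIL-deficient cTECs, 208, 239.5 and 242 CPM in control mTEChi and 392, 356 and 341 CPM in HOIL-deficient mTEChi. It rose by 0.86 ± 0.14 in cTECs (adjusted p = 0.00228) and by 0.60 ± 0.14 in mTEChi (adjusted p = 0.011), with no overlap. Its span overlaps that of Snx22 by 1456 bases, and Snx22 held 700 to 3661 counts a library, so reads of the shared stretch could not be assigned to 1 of them with certainty. Counts of Snx22 were also higher in HOIL-deficient libraries. They were 700 to 1256 in control and 1614 to 2689 in HOIL-deficient cTECs, and 1619 to 1761 and 2828 to 3661 in mTEChi, not scaled to library totals. The part of this overlap in the rise of Ppib was not tested. Of the 6 isomerases, 4 rose in each cell type (66.7%), beside 6.06% of all tested genes in cTECs and 11.3% in mTEChi. The median log2 fold change of the 6 isomerases was 0.70 in cTECs and 1.17 in mTEChi.

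**Figure D3:**
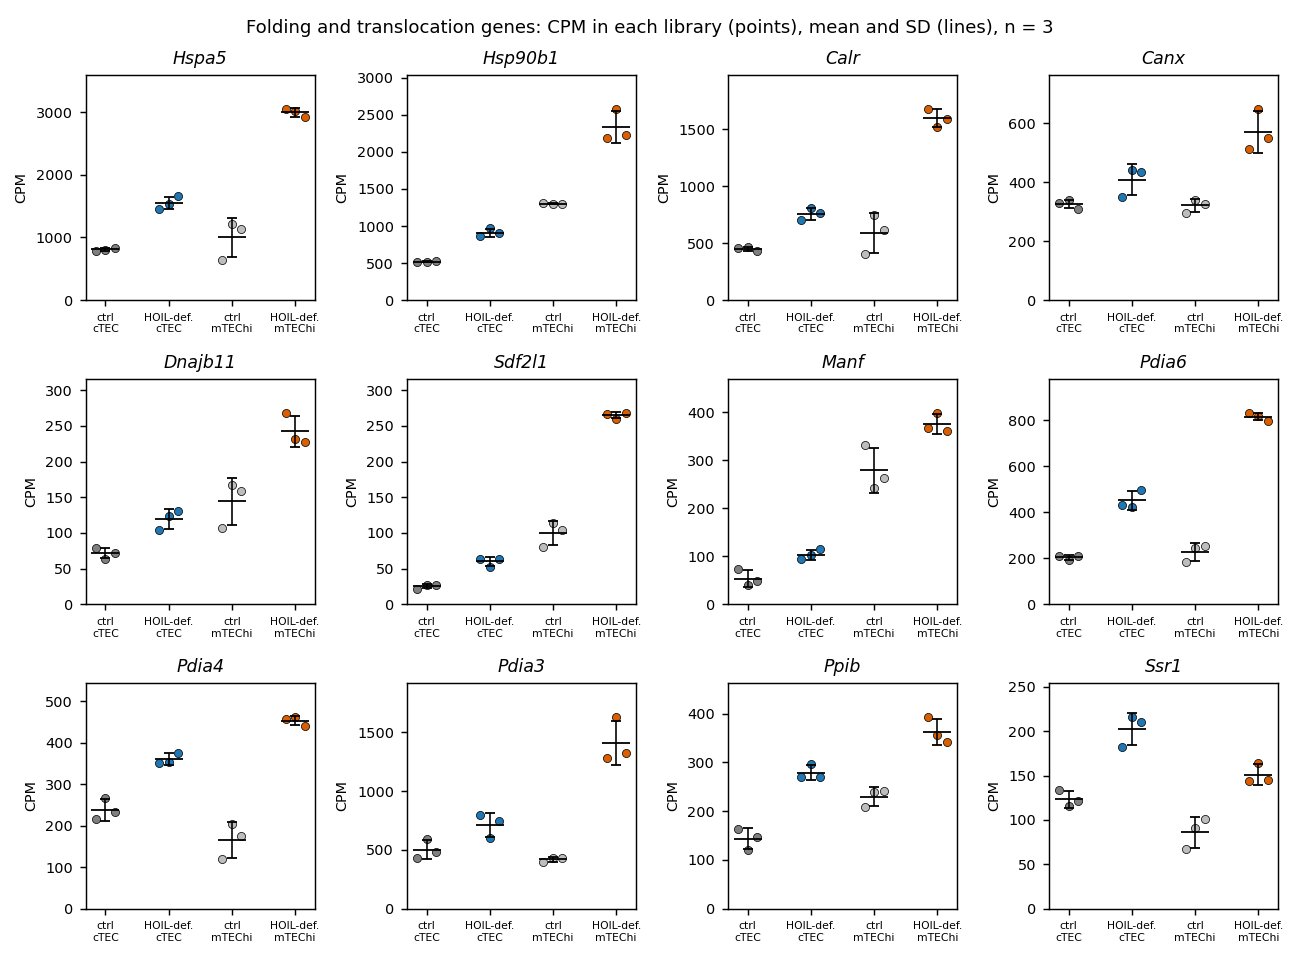
CPM of 12 folding and translocation genes in each library (points), with the mean and SD of the 3 libraries of a group (lines), for control and HOIL-deficient cTECs and mTEChi. For Hspa5, Pdia6 and Sdf2l1 the HOIL-deficient points lie above the controls in both cell types, and for Pdia3 they separate widely only in mTEChi, at 1285 to 1629 CPM against 393 to 433 CPM.

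ERAD genes, whose products carry misfolded proteins out of the ER for destruction, gave few calls, but they are only 7 genes. Of all tested genes, 6.06% rose and 6.02% fell in cTECs, and 11.3% and 8.59% in mTEChi. Among 7 genes, counts of 0 or 1 cannot be told apart from these shares. In cTECs 1 of the 7 ERAD genes rose (14.3%) and 1 fell (14.3%), with a median log2 fold change of -0.09. In mTEChi 0 of the 7 passed the test with edgeR or with DESeq2, 1 (Herpud1) did with limma-voom, and 1 had an unadjusted p under 0.05, with a median of 0.29. Derl3 (Entrez 70377, chr10:75893398-75895941), a derlin of the ERAD channel that is abundant in secretory cells, was at 0.0921, 0.630 and 0.103 CPM in control cTECs, which were 1, 5 and 1 counts, and at 4.26, 3.79 and 2.56 CPM in HOIL-deficient cTECs. In mTEChi it was at 5.94, 11.7 and 8.91 CPM in controls and 15.1, 11.3 and 11.2 CPM in HOIL-deficient libraries, which overlapped. Its log2 fold change was 3.65 ± 0.60 in cTECs (adjusted p = 0.0021), a value that depends on the prior count at such low levels, and 0.46 ± 0.43 in mTEChi (adjusted p = 0.494). Edem1 (Entrez 192193, chr6:108824045-108859356), a lectin that selects misfolded glycoproteins for ERAD, was at 310.5, 166 and 194 CPM in control cTECs, 113, 105 and 153 CPM in HOIL-deficient cTECs, 54.6, 51.4 and 54.6 CPM in control mTEChi and 64.6, 58.4 and 83.0 CPM in HOIL-deficient mTEChi. It fell by 0.95 ± 0.23 on the log2 scale in cTECs (adjusted p = 0.0174) with no overlap and with control replicate 1 far above the other controls, and it had 0.29 ± 0.23 in mTEChi (adjusted p = 0.408), where the HOIL-deficient libraries lay just above the controls. The cTEC call of Edem1 was lost without control cTEC replicate 1 (adjusted p = 0.0533), HOIL-deficient cTEC replicate 1 (0.0547) or HOIL-deficient cTEC replicate 2 (0.0662) and in a fit of the cTEC groups alone (0.0625), in a range from 0.00526.

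Herpud1, which recruits the ubiquitin ligase of ERAD and is itself induced by ER stress, had log2 fold changes of 0.28 ± 0.18 in cTECs (adjusted p = 0.328) and 0.50 ± 0.17 in mTEChi (adjusted p = 0.0572). Its HOIL-deficient libraries lay above the controls in both cell types, at 352, 339 and 302 CPM against 171, 259.7 and 248 CPM in mTEChi. It passed the test in cTECs without replicate 1 of both control groups (0.0227, range up to 0.716). In mTEChi it passed without control cTEC replicate 1 (0.0225), with limma-voom (0.0274) and in a fit of the mTEChi groups alone (0.0424), in a range up to 0.224. The ubiquitin ligase Syvn1 (HRD1) had -0.47 in cTECs and -0.08 in mTEChi, and its partner Sel1l had -0.13 and 0.31. The channel proteins Derl1 and Derl2 had -0.09 and 0.29 in cTECs and 0.26 and 0.04 in mTEChi. None of these 4 genes passed the test in either cell type under any of the alternatives run.

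The translocon threads new chains into the ER, and its 3 members did not move together. Ssr1 (Entrez 107513, chr13:37971401-37994208), a subunit of the translocon-associated protein complex, was at 133, 115 and 121 CPM in control cTECs, 182, 216 and 210 CPM in HOIL-deficient cTECs, 67.0, 90.6 and 101 CPM in control mTEChi and 144, 164 and 145 CPM in HOIL-deficient mTEChi. It rose by 0.63 ± 0.15 in cTECs (adjusted p = 0.0172) and by 0.76 ± 0.15 in mTEChi (adjusted p = 0.00439), with no overlap. The cTEC call of Ssr1 was lost without HOIL-deficient cTEC replicate 2 (0.0637), control cTEC replicate 2 (0.0595) or control cTEC replicate 3 (0.0694) and with males only (0.067), in a range from 0.00046. Sec61a1 (Entrez 53421, chr6:88503607-88518800), the channel itself, was at 165, 243 and 226 CPM in control cTECs, 304, 194 and 278 CPM in HOIL-deficient cTECs, 99.2, 188 and 145 CPM in control mTEChi and 322, 202 and 276 CPM in HOIL-deficient mTEChi. It rose in mTEChi (0.84 ± 0.23, adjusted p = 0.023) without overlap, and its cTEC groups overlapped (0.20 ± 0.23). Without HOIL-deficient mTEChi replicate 1 or 3 the adjusted p was 0.096 or 0.0668, without control mTEChi replicate 1 or 3 it was 0.117 or 0.0763, with males only 0.0642 and without replicate 1 of both control groups 0.0662, in a range from 0.0158. Sec61b (Entrez 66212, chr4:47474661-47483233), the small beta subunit of the channel, was at 68.2, 64.5 and 84.0 CPM in control cTECs, 118, 105 and 118 CPM in HOIL-deficient cTECs, 213, 117 and 150.2 CPM in control mTEChi and 103, 90.0 and 137 CPM in HOIL-deficient mTEChi. It was higher in all HOIL-deficient cTEC libraries (0.57 ± 0.23, adjusted p = 0.13) and overlapped in mTEChi (-0.63 ± 0.23, adjusted p = 0.0721). Sec61b passed the test in cTECs without control mTEChi replicate 1 (0.0459) and in a fit of the cTEC groups alone (0.0441), in a range up to 0.29. It was called lower in mTEChi without HOIL-deficient mTEChi replicate 3 (0.0472) or control mTEChi replicate 2 (0.0214), with DESeq2 (0.0252), RLE factors (0.046) and upper-quartile factors (0.0438), in a range up to 0.355.

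Among the 6 sensors and transcription factors, 0 passed the test in either cell type with edgeR. Of all tested genes, 6.06% rose and 6.02% fell in cTECs, and 11.3% and 8.59% in mTEChi. Among 6 genes, a count of 0 cannot be told apart from these shares. In cTECs 1 of the 6, and in mTEChi 2, had an unadjusted p under 0.05, all with lower values in HOIL-deficient cells. DESeq2 called the same 1 and 2 genes while limma-voom called 0. Ern1 (Entrez 78943, chr11:106397620-106487796), which encodes IRE1 alpha, was at 1.20, 6.42 and 2.79 CPM in control cTECs, 4.62, 7.28 and 3.24 CPM in HOIL-deficient cTECs, 3.38, 3.21 and 2.78 CPM in control mTEChi and 2.47, 1.96 and 1.54 CPM in HOIL-deficient mTEChi. Eif2ak3 (Entrez 13666, chr6:70844484-70905241), which encodes PERK, was at 13.8, 10.8 and 14.4, 6.16, 7.38 and 17.2, 14.5, 10.6 and 9.37 and 12.7, 15.8 and 8.20 CPM in the same order of groups. Atf6 (Entrez 226641, chr1:170704457-170868585) was at 15.8, 26.1 and 19.1, 23.1, 52.3 and 15.2, 31.3, 24.6 and 21.1 and 26.3, 33.4 and 25.9 CPM. The genotypes overlapped for all 3 sensors in both cell types, except for Ern1 in mTEChi, where the HOIL-deficient libraries were lower. Their log2 fold changes, with approximate SE, were 0.47 ± 0.56 and -0.72 ± 0.58 for Ern1 in cTECs and mTEChi, -0.43 ± 0.39 and 0.01 ± 0.39 for Eif2ak3, and 0.49 ± 0.38 and 0.08 ± 0.38 for Atf6.

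Xbp1 (Entrez 22433, chr11:5520641-5525993), the factor that IRE1 activates, was at 334, 365 and 354 CPM in control cTECs, 326, 312 and 349.7 CPM in HOIL-deficient cTECs, 86.3, 150.3 and 144 CPM in control mTEChi and 129, 163 and 141 CPM in HOIL-deficient mTEChi. The genotypes overlapped in both cell types, with log2 fold changes of -0.18 ± 0.16 (adjusted p = 0.534) and 0.14 ± 0.17 (adjusted p = 0.6). Atf4 (Entrez 11911, chr15:80255184-80257545), whose protein output is set mainly by translation, was at 135, 122 and 125 CPM in control cTECs, 129.5, 144 and 162 CPM in HOIL-deficient cTECs, 201, 153 and 175 CPM in control mTEChi and 138, 133 and 134 CPM in HOIL-deficient mTEChi. All HOIL-deficient mTEChi libraries lay below the controls (-0.46 ± 0.16, adjusted p = 0.0546), and in cTECs the groups overlapped (0.10 ± 0.16, adjusted p = 0.778). The mTEChi value of Atf4 passed the test without control cTEC replicate 1 (0.0485) or control mTEChi replicate 2 (0.0271), with RLE (0.03) or upper-quartile factors (0.0311), with DESeq2 (0.00877) and with mitochondrial and Malat1 counts removed (0.0478), in a range up to 0.173. Ddit3 (Entrez 13198, chr10:127290793-127296291), which encodes CHOP, was at 50.5, 33.6 and 42.4 CPM in control cTECs, 30.3, 28.5 and 29.5 CPM in HOIL-deficient cTECs, 48.8, 40.3 and 46.2 CPM in control mTEChi and 35.5, 34.0 and 32.6 CPM in HOIL-deficient mTEChi. Every HOIL-deficient library was below every control in both cell types, with -0.61 ± 0.20 in cTECs (adjusted p = 0.0571) and -0.48 ± 0.19 in mTEChi (adjusted p = 0.0994). DESeq2 called both (0.0429 and 0.0287), and edgeR called the cTEC value without control cTEC replicate 2 (0.0397), with ranges up to 0.172 and 0.258. The ends of Ddit3 overlap Mbd6 by 77 and Mars1 by 71 bases.

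Of the 3 ATF4 targets, 1 fell in cTECs and another rose in mTEChi, and the difference between the cell types passed the test for Asns alone. Of all tested genes, 6.02% fell in cTECs and 11.3% rose in mTEChi. Among 3 genes, a count of 1 cannot be told apart from these shares. Trib3 (Entrez 228775, chr2:152337425-152344060), a pseudokinase that restrains ATF4 and CHOP signalling, was at 7.28, 15.6 and 10.7 CPM in control cTECs, 4.26, 6.46 and 4.83 CPM in HOIL-deficient cTECs, 7.06, 13.9 and 7.64 CPM in control mTEChi and 15.7, 13.0 and 12.1 CPM in HOIL-deficient mTEChi. Its groups did not overlap in cTECs, where it fell by 1.19 ± 0.36 on the log2 scale (adjusted p = 0.0457), and overlapped in mTEChi (0.46 ± 0.35, adjusted p = 0.384). The cTEC call was held in only 5 of 23 alternatives: leaving out any 1 library other than control cTEC replicate 1 and control mTEChi replicate 2 ended it, with adjusted p from 0.0538 to 0.189. Asns (Entrez 27053, chr6:7675165-7693209), asparagine synthetase, was at 70.4, 68.2 and 72.1 CPM in control cTECs, 56.8, 72.0 and 57.8 CPM in HOIL-deficient cTECs, 23.8, 30.6 and 23.9 CPM in control mTEChi and 50.4, 64.0 and 47.1 CPM in HOIL-deficient mTEChi. It rose in mTEChi without overlap (0.98 ± 0.18, adjusted p = 0.0025) and had -0.26 ± 0.18 in cTECs (adjusted p = 0.371). Chac1 (Entrez 69065, chr2:119351242-119354326), which degrades glutathione, held 0 to 6 counts a library in cTECs, at 0.276, 0.756 and 0 CPM in controls and 0.592, 0 and 0 CPM in HOIL-deficient libraries. In mTEChi it was at 0.205, 4.86 and 2.31 and 6.41, 4.30 and 3.57 CPM, with overlap, and its log2 fold changes of -0.97 ± 1.43 and 0.94 ± 1.01 did not pass the test.

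**Figure D4:**
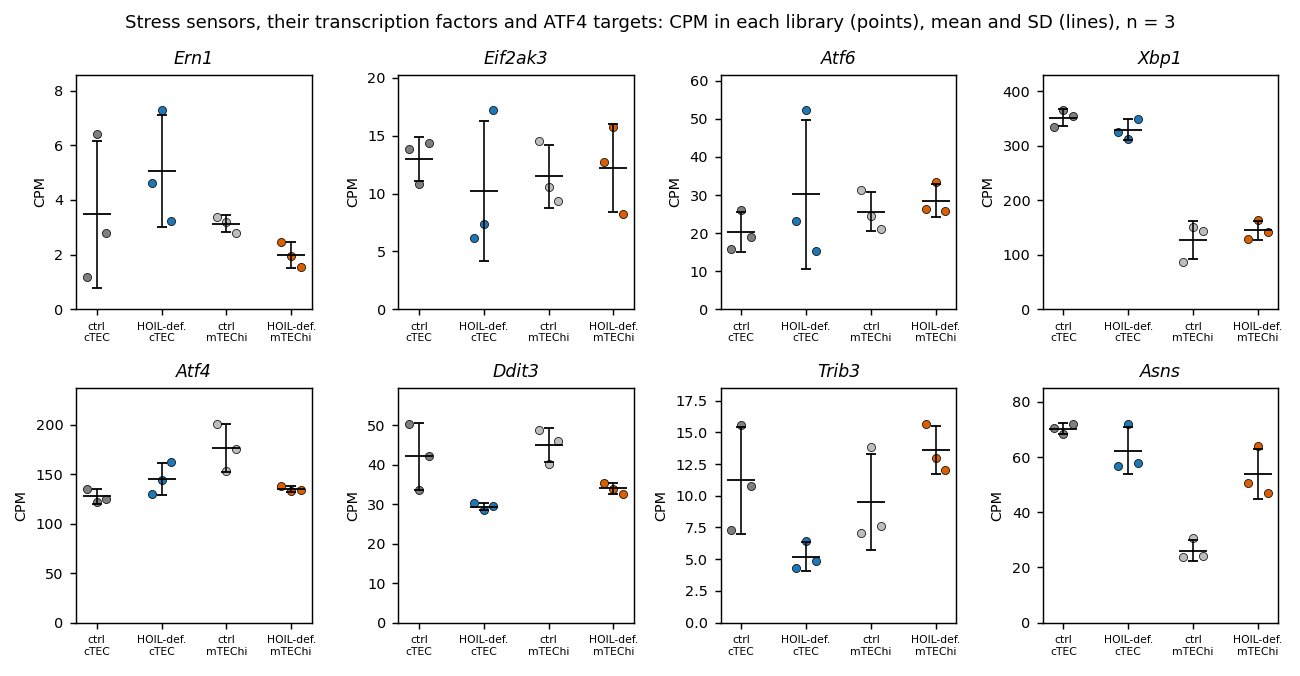
CPM of the 6 sensors and transcription factors and of Trib3 and Asns in each library (points), with the mean and SD of the 3 libraries of a group (lines). Xbp1 is lower in mTEChi than in cTECs and overlaps between genotypes. The HOIL-deficient points of Ddit3 lie below the controls in both cell types, but edgeR called it in neither. Asns is higher in HOIL-deficient mTEChi, at 47.1 to 64.0 CPM against 23.8 to 30.6 CPM.

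The HOIL effect differed between the cell types for 7 members, by the interaction contrast (the mTEChi effect minus the cTEC effect). The value was above 0 for 5 members, where 5.97% of all tested genes were, and below 0 for 2, where 3.87% of all genes were. With RLE factors these counts were 3 and 2 and with upper-quartile factors 2 and 2, and the median of all genes moved from 0.09 to -0.05 and -0.07 on the log2 scale. Pdia3 had the smallest p, with 1.27 ± 0.22 (adjusted p = 0.00467), followed by Asns with 1.25 ± 0.25 (adjusted p = 0.0094), and both passed under every alternative. Derl3 had -3.19 ± 0.75 (adjusted p = 0.0185), which without control cTEC replicate 3 was not called (0.0529, range from 0.000426). Pdia4 had 0.90 ± 0.22 (adjusted p = 0.0211), lost without HOIL-deficient mTEChi replicate 3 (0.0579) or control mTEChi replicate 3 (0.0615), with males only (0.061) and with upper-quartile factors (0.0564), in a range from 0.0111. Pdia6 had 0.73 ± 0.18 (adjusted p = 0.0234) and was called in 15 of 23 alternatives: it was lost without HOIL-deficient cTEC replicate 1 or 2, control cTEC replicate 3, or HOIL-deficient mTEChi replicate 1 or 3 (adjusted p from 0.0524 to 0.067), with males only (0.0543) and with RLE (0.0661) or upper-quartile factors (0.0853).

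Edem1 (1.24 ± 0.33, adjusted p = 0.0299) and Sec61b (-1.20 ± 0.33, adjusted p = 0.0349) passed in 13 of 23 alternatives each. The call of Edem1 was lost without HOIL-deficient cTEC replicate 1 or 2, HOIL-deficient mTEChi replicate 1 or 3, or any 1 of the 3 control mTEChi libraries, with adjusted p from 0.0511 to 0.0872. That of Sec61b was lost without HOIL-deficient cTEC replicate 1 or 3, control cTEC replicate 1 or 2, HOIL-deficient mTEChi replicate 1 or 2, or control mTEChi replicate 1 or 3, with adjusted p from 0.052 to 0.0827. Calr (0.73 ± 0.23) and Hspa5 (0.69 ± 0.23) were above 0 with adjusted p of 0.0554 and 0.0713, and Hspa5 passed without replicate 1 of both control groups (0.0301, range up to 0.186). Calr passed without control mTEChi replicate 2 (0.0243, range up to 0.15), and limma-voom called both (0.0402 for Calr and 0.0481 for Hspa5). Trib3 had 1.66 ± 0.50 (adjusted p = 0.0529, 0.028 to 0.142 over the alternatives) and passed without HOIL-deficient cTEC replicate 2 (0.0492), control cTEC replicate 1 (0.028) or control mTEChi replicate 2 (0.0372), and with DESeq2 (0.0312).

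The normal difference between the cell types was seen in the controls. In control mTEChi 13 members were higher (36.1%) and 7 lower (19.4%) than in control cTECs, where 37.8% and 26.4% of all tested genes were. In this fit, neither share of the members as a set was above that of all genes. With RLE factors 17 members were higher and 4 lower, beside 8032 and 4160 of the 19398 tested genes. Upper-quartile factors gave the same 17 and 4, beside 7932 and 4246 genes. With DESeq2 they were 18 and 4, beside 8194 and 4334 genes. In each of these fits the members' share of higher genes was above that of all genes. The median of all genes moved from 0.24 to 0.43 with RLE and 0.41 with upper-quartile factors. The chaperones and cochaperones that were higher were Manf (2.49 ± 0.23, adjusted p = 6.89e-07), Sdf2l1 (2.06 ± 0.15, adjusted p = 8.58e-08), Creld2 (1.82), Dnajb9 (1.50), Hsp90b1 (1.42), Dnajb11 (1.09) and Calr (0.47). Creld2 was at 158, 104 and 96.7 CPM in control cTECs and 314, 461 and 425 CPM in control mTEChi. Derl3 (5.14 ± 0.60), Herpud1 (2.28 ± 0.18), Sec61b (1.27), Ppib (0.77), Atf4 (0.57) and Chac1 (2.90, adjusted p = 0.0463) were the other higher members. Edem1 (-1.97 ± 0.24), Xbp1 (-1.39 ± 0.17, adjusted p = 8.4e-06), Asns (-1.34 ± 0.18), Txndc5 (-0.89), Derl1 (-0.54), Pdia4 (-0.44) and Ssr1 (-0.43) were lower. Xbp1 RNA was lower in the cell type in which 7 of the 11 chaperones (63.6%, beside 37.8% of all tested genes) were higher. The calls of Txndc5, Pdia4 and Ssr1 were lost with RLE and upper-quartile factors and with DESeq2, and without control mTEChi replicate 1 (0.0841, 0.075 and 0.0855). They were also lost without control cTEC replicate 2 for Txndc5 (0.0967) and Pdia4 (0.0827) and without control cTEC replicate 1 for Ssr1 (0.0649). In a fit of the control groups alone, the calls of Txndc5 (0.058), Pdia4 (0.108), Ssr1 (0.0893) and Calr (0.0703) were lost. The call of Calr was also lost with males only (0.055) and without control cTEC replicate 3 (0.0806) or control mTEChi replicate 2 (0.121) or 3 (0.0658). Hspa5, at 0.38 ± 0.16 (adjusted p = 0.0528), became a call without control mTEChi replicate 1 (0.000268), as did Pdia6 (0.0204). The size factors mattered as well. Hspa5 was called with RLE factors (0.00794), upper-quartile factors (0.0111) and DESeq2 (0.00312). So were Pdia6 (0.0109, 0.0178 and 0.00208), Dnajc3 (0.0227, 0.033 and 0.0161) and Derl2 (0.0119, 0.0165 and 0.00564), in the same order. Dnajc3 became a call without control cTEC replicate 1 (0.000779), as did Derl2 (0.0144), Syvn1 (0.0376) and Sec61a1 (0.0411), Sec61a1 also without control mTEChi replicate 2 (0.0355) and Syvn1 also without HOIL-deficient cTEC replicate 3 (0.0492). Chac1, with 2 to 47 counts in control mTEChi, passed in 12 of 24 alternatives and was lost without control cTEC replicate 1 or 3, control mTEChi replicate 2 or 3, or any 1 HOIL-deficient mTEChi library, with adjusted p from 0.0557 to 0.217.

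The comparison of control cell types and the 2 HOIL effects share the control libraries, so their values stand side by side without a test of likeness. Sdf2l1 was 2.06 higher in control mTEChi than in control cTECs and rose by 1.16 and 1.36 with HOIL deficiency in cTECs and mTEChi. For Pdia6 these values were 0.24, 1.05 and 1.78, and for Pdia3 -0.16, 0.42 and 1.69. For Creld2 they were 1.82, -0.35 and 0.01, so that a chaperone with a large difference between cell types showed none between genotypes that passed the test.

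Other genes of the pathway were listed by role, with earlier results of these data known, 154 in all, of which 152 were tested. In HOIL-deficient cTECs 16 of the 152 rose and 2 fell, with a median of 0.11, and in HOIL-deficient mTEChi 52 rose and 8 fell, with a median of 0.36. These are 10.5% and 1.32% in cTECs, beside 6.06% and 6.02% of all tested genes, and 34.2% and 5.26% in mTEChi, beside 11.3% and 8.59%. The 6 lists ranged from 0% to 21.4% higher in cTECs and from 16% to 56% higher in mTEChi, with other UPR regulators lowest in both. Of 24 other folding enzymes 2 rose in cTECs, Ppic (1.13 ± 0.19, adjusted p = 0.00257), cyclophilin C, and P4hb (0.91 ± 0.17, adjusted p = 0.00422), the prototype disulfide isomerase. In mTEChi 6 rose, led by Ppic (2.31 ± 0.21, adjusted p = 4.39e-05) and the membrane-bound isomerase Tmx1 (1.37 ± 0.18). Of 28 genes of translocation and N-glycosylation 6 rose in cTECs, led by the oligosaccharyltransferase subunits Ddost (0.72 ± 0.16, adjusted p = 0.0111) and Ostc (0.72 ± 0.17). In mTEChi 15 of these rose and 2 fell. The subunits of the same enzyme Rpn2 (1.30 ± 0.14, adjusted p = 0.000167) and Stt3a (1.62 ± 0.21) led the rises, while Srp14 (-0.65 ± 0.18), a part of the signal recognition particle, and Dad1 (-0.65 ± 0.21), another subunit of the enzyme, fell.

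The shares of the next lists stand beside 6.06% of all tested genes higher and 6.02% lower in cTECs, and 11.3% and 8.59% in mTEChi. Of 25 genes of transport between ER and Golgi, 3 rose in cTECs (12%). Kdelr2 (0.92 ± 0.18, adjusted p = 0.00521), the receptor that returns chaperones such as BiP to the ER, and the cargo receptor Tmed10 (0.60 ± 0.15) were first by p. In mTEChi 14 rose (56%) and 1 fell (4%). The coat proteins Arcn1 (1.35 ± 0.17, adjusted p = 0.000338) and Sec24d (1.31 ± 0.20) led the rises, and the Golgi matrix protein Golgb1 (-1.03 ± 0.22) was the 1 that fell. Of 21 other ERAD genes, 2 rose (9.52%) and 1 fell (4.76%) in cTECs, near the shares of all genes. They were the ER selenoproteins Selenos at 0.65 and Selenok at 0.47, and the p97 cofactor Nploc4 at -0.79. In mTEChi 4 rose (19.05%) and 1 fell (4.76%). Among them were the ubiquitin-conjugating enzyme Ube2j1 at 0.90, the p97 recruiter Faf2 at 0.84 and the lectin Erlec1 at -1.18. Of 25 other UPR regulators, 0 passed in cTECs with edgeR, where 2 had an unadjusted p under 0.05, and 0 passed with DESeq2 or limma-voom. In mTEChi 4 rose (16%) and 2 fell (8%), near the shares of all genes. Eif2s1 (0.94 ± 0.21), the translation factor that PERK phosphorylates, and Atf6b (1.11 ± 0.25), the paralogue of Atf6, had the smallest p among the rises. Cebpb (-1.17 ± 0.19, adjusted p = 0.00117) and Ppp1r15b (-0.88 ± 0.26), the constitutive phosphatase subunit for the factor that PERK phosphorylates, fell. DESeq2 called 4 higher and 4 lower in this list, and limma-voom 2 and 3. Of 29 other ATF4 and CHOP targets, 3 rose (10.3%) and 1 fell (3.45%) in cTECs. Pck2 (1.88 ± 0.30, adjusted p = 0.00172) and Phgdh (0.68 ± 0.19), enzymes of phosphoenolpyruvate and serine synthesis, were higher and the cystine transporter Slc7a11 (-1.86 ± 0.50) lower. In mTEChi 9 rose (31.0%) and 2 fell (6.90%). Psat1 (1.68 ± 0.23, adjusted p = 0.000537), of serine synthesis, and the hormone Fgf21 (1.48 ± 0.22) were higher. The stress protein Nupr1 (-1.98 ± 0.32, adjusted p = 0.00132) and Atf5 (-1.57 ± 0.43) were lower. The list of 15 cytosolic and mitochondrial heat shock genes, chaperones of other compartments, had medians of 0.001 in cTECs and -0.28 in mTEChi. In cTECs the small heat shock protein gene Hspb1 (2.06 ± 0.37) and the HSP110 gene Hsph1 (0.89 ± 0.23) rose (13.3% of the list). In mTEChi 3 rose (20%), led by the mitochondrial Hspa9 (0.81 ± 0.13) and the constitutive Hspa8 (0.72 ± 0.13). The HSP70 cochaperone gene Bag3 (-0.91 ± 0.30) and Hspb1 (-1.03 ± 0.34) fell (13.3%).

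**Figure D5:**
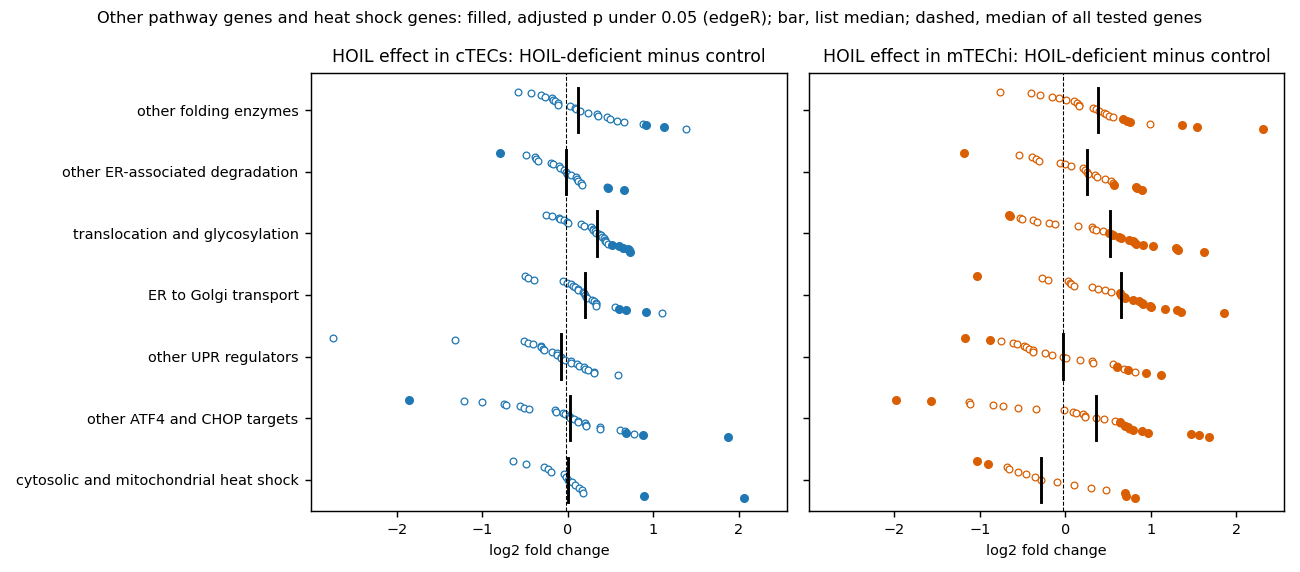
Log2 fold change of each tested gene of the 6 other pathway lists and of the heat shock list, HOIL-deficient against control, in cTECs (left) and mTEChi (right), with filled points for an adjusted p under 0.05, black bars for list medians and a dashed line for the median of all tested genes. In mTEChi the bars of translocation and glycosylation (0.53) and ER to Golgi transport (0.65) lie furthest to the right and that of heat shock genes (-0.28) to the left of the dashed line.

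Set against the promoter matches, an ERSE was in the windows of 6 of the 14 members with a window that rose in 1 or both cell types and of 3 of the 17 that rose in neither. The motif was uneven between arms, as were the rises. It was in 6 of 9 chaperones, 1 of 6 isomerases and 2 of 6 ERAD genes with a window. None of the 5 sensors and transcription factors, 3 ATF4 targets and 2 translocon genes held it. Whether an ERSE went with a rise apart from arm was not tested. Among the members that rose in both cell types it was in 4 of 9, Hspa5, Hsp90b1, Calr and Pdia6. Pdia4, Ppib, Sdf2l1 and Ssr1 rose in both with no match to any of the 4 motifs in their windows, and Dnajc3, Creld2 and Syvn1 held an ERSE without passing the test in either cell type. The ATF4 targets Trib3, Asns and Chac1 all held the composite element while Trib3 fell in cTECs, Asns rose in mTEChi and Chac1 passed in neither. The letters are the same in every group of the study, so they describe the members and do not vary with genotype or cell type.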

How the data were processed

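RNA was measured with SMART-Seq v4 cDNA and Nextera XT libraries, sequenced as paired ends on a NextSeq 500, per the labels' protocols. The deposited values are raw read counts per Entrez gene, made by the authors with featureCounts on mm10, per the submitters' processing notes. For the aligner, the annotation release, the strand setting and all versions, the sources used here give nothing. The gene lengths stand in a column of other numbers of the deposited files. A deposited joined table was left out because it holds the same counts as the 12 single files. Symbols and coordinates came from a RefSeq table (GRCm38.p6), which matched 25275 of the 27179 identifiers.

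Genes were filtered with filterByExpr over the 4 groups, and the 12 libraries were fitted together with TMM factors by edgeR's robust quasi-likelihood F test (edgeR 4.0.16, limma 3.58.1, R 4.3.3), without a replicate block. The 4 contrasts were HOIL-deficient against control in cTECs and in mTEChi, the difference between these effects, and control mTEChi against control cTECs. Calls are at a Benjamini-Hochberg adjusted p under 0.05 over all 19398 tested genes. The approximate SE is the absolute log2 fold change divided by the root of F. CPM are counts scaled to a common library total of 1e6, and log2 levels use an offset of 0.5. Counts limit precision for genes with few of them, and library totals are given as a range with the results. Scripts were tested on simulated data. Alternatives were RLE and upper-quartile factors, no filter, a stricter filter (CPM of 1 in 3 libraries), DESeq2 1.42.0, limma-voom, only the groups compared, males only, a replicate block, and leaving out each library. Libraries were treated as unpaired.

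Members and all gene lists were chosen with earlier results of these data known. Members with a call in a HOIL effect or in the difference, the sensors and the ATF4 targets are given by library; of the other pathway lists, the 2 genes with the smallest p in each direction among those called are named.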

Additional observations from a re-analysis of the deposited data

Results flagged for a closer look

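The HOIL effect differed between mTEChi and cTECs for 7 members by the test of the difference itself (edgeR interaction contrast, Benjamini-Hochberg). It was above 0 for 5 and below 0 for 2, beside 5.97% and 3.87% of all tested genes. These counts became 3 and 2 with RLE factors, 2 and 2 with upper-quartile factors, 2 and 1 with males only, 6 and 3 with DESeq2 and 7 and 2 with limma-voom. Only Pdia3 and Asns passed under every alternative. Pdia3 had a difference of 1.27 ± 0.22 on the log2 scale (approximate SE, adjusted p = 0.00467), from effects of 0.42 in cTECs and 1.69 in mTEChi. Asns had 1.25 ± 0.25 (adjusted p = 0.0094), from effects of -0.26 and 0.98 that lie on opposite sides of 0. Pdia4 had 0.90 ± 0.22 (adjusted p = 0.0211) and Pdia6 0.73 ± 0.18 (adjusted p = 0.0234), both with a called rise in each cell type. Edem1 had 1.24 ± 0.33 (adjusted p = 0.0299), from effects of -0.95 and 0.29. Derl3 had -3.19 ± 0.75 (adjusted p = 0.0185), from effects of 3.65 and 0.46, and Sec61b -1.20 ± 0.33 (adjusted p = 0.0349), from effects of 0.57 and -0.63.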

How the results depend on the processing

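No call of a member reversed under any alternative run. In mTEChi the number of members that rose stayed between 12 and 15, and in the comparison of control cell types the number higher stayed between 11 and 18. In cTECs the 12 members that rose became 6 with males only, and 7 to 13 leaving out 1 library at a time, with 7 without HOIL-deficient cTEC replicate 2 or control cTEC replicate 3. The 2 that fell became 1 with RLE or upper-quartile factors, no filter, limma-voom, males only, the replicate block, and mitochondrial and Malat1 counts removed. They became 0 with only the groups compared, 3 with DESeq2, and 0 to 2 leaving out 1 library. In mTEChi the 0 members that fell became 2 with RLE or upper-quartile factors, 3 with DESeq2, 1 with mitochondrial and Malat1 counts removed, and 0 to 2 leaving out 1 library. The 5 members with a difference above 0 became 3 with RLE factors, 2 with upper-quartile factors or males only, 6 with DESeq2, 7 with limma-voom, and 2 to 6 leaving out 1 library. The 2 below 0 became 1 with males only or without replicate 1 of both control groups, 3 with DESeq2, and 1 to 2 leaving out 1 library. The 7 members lower in control mTEChi became 4 with RLE or upper-quartile factors, DESeq2 or only the groups compared, and 4 to 8 leaving out 1 library, with 4 without control mTEChi replicate 1. For the drops with fewer libraries the alternatives themselves hold fewer samples, and for the others the cause was not tested. The fit of only the groups compared could not be made for the difference, and the block within genotype was used for the difference and the control comparison alone.

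With the replicate block, 11 members rose and 1 fell in cTECs, 13 rose in mTEChi, 6 and 2 differed between the effects and 12 were higher and 7 lower in control mTEChi. With this block the difference passed for Trib3 (adjusted p = 0.0488), and with the block within genotype Sec61a1 passed in the difference (0.0479) and the control comparison (0.00662). The labels tie same-numbered libraries to no shared animal or batch, although replicate 3 of both HOIL-deficient groups is female. Correlations of their deviations from group means were from -0.200 to 0.0180 between genotypes of cTECs, from -0.0873 to -0.0195 in mTEChi, and from -0.0493 to 0.123 between control cell types. Between the HOIL-deficient cell types they were 0.0407 to 0.102, and there each library correlated best with its own number.

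Depth limits Derl3 in control cTECs and Chac1 in cTECs, where counts were 1 to 5 and 0 to 6 a library. HOIL-deficient replicate 3 was the only female of each group, so sex and that library cannot be told apart.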
